A study of Arabidopsis thaliana with 4 samples.

Results

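Leaves of the myc2 mutant were compared with wild-type leaves by RNA sequencing, both from samples titled air with no submergence given. The comparison holds 2 of the 4 libraries of the series, 1 per genotype, and was made for the 16616 of 31319 loci with a mean of at least 1 RPKM (reads per kilobase of transcript, scaled to the size of the library) in these libraries. Genes were counted when the log2 ratio of myc2 to wild type (WT), computed as log2((RPKM + 1)/(RPKM + 1)), was at least 1 or at most -1, which is 2-fold on that scale. With 1 library a side there is no test, no p-value and no replicate check of any difference below. The RPKM values were made by the authors, and the pseudocount of 1 keeps the ratios of genes near 1 RPKM small.

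All plants were Arabidopsis thaliana of the Col-0 background and 4 weeks of age, and each library came from leaves of 6 plants pooled together. The mutant is named myc2-2 in the treatment protocol and myc2 in the titles, and no other line is named. The other libraries of the series, WT R3 and myc2 R3, are labelled as taken 3 h after submergence, while the protocol gives 24 h of submergence in the dark with harvests at 0 and 24 h of reoxygenation. They share no library with the air comparison and are given beside it as a second reading of the genotypes in another condition. The series title asks about jasmonate and antioxidant synthesis in reoxygenation, and the air libraries show how the genotypes differed without that treatment.

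MYC2 is a basic helix-loop-helix transcription factor that binds the G-box CACGTG and relatives of it and activates genes of the jasmonate response. In unstimulated cells JAZ proteins bind MYC2 and hold it inactive, and the bioactive hormone jasmonoyl-isoleucine, bound by the receptor COI1, leads to the destruction of JAZ proteins. Genes of jasmonate synthesis, JAZ genes and MYC2 itself are among the targets, so the pathway feeds back on itself, and in leaves it governs wound responses, anthocyanin and storage protein accumulation and defence against chewing insects.

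The libraries held an estimated 28.9 M (WT air) and 30.1 M (myc2 air) fragments, and 16078 and 16930 loci reached 1 RPKM. For a gene of median length at 1 RPKM, counting error alone was 14.7% and 14.4% of the value, which does not cover differences between plants or preparations. Across genes, which are not independent replicates, the log2 levels of the libraries correlated at r = 0.98. The markers of leaf mesophyll were among the most abundant transcripts, with LHCB1.2, a chlorophyll-binding protein gene, at 9200.2 RPKM in the WT library and 7759 in the myc2 library in air, and RBCS1A, which encodes a small subunit of Rubisco, at 18319 and 13700.2. Seed markers were at or near 0, with CRU3, OLEO1 and OLEO2 listed at 0 in both, and of 5 root markers only PYK10, a beta-glucosidase gene, exceeded 0.4 RPKM, at 2.91 and 6.54.

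As deposited, 410 genes were at least 2-fold higher in myc2 (2.47% of those tested) and 57 were at least 2-fold lower (0.343%), together 2.81%. The ratios of all genes were centred above 0, with a median of 0.22, 5% of genes below -0.31 and 5% above 0.83, and 78.6% of genes were above 0. The 50 highest loci held 39.1% (WT air) and 33.0% (myc2 air) of the RPKM sum. Scaled by the median of ratios, all genes had a median of 0.01 and the counts were 213 higher and 109 lower, which moved the share of higher genes among those counted from 87.8% to 66.1%. List medians below are therefore given less the median of all genes. In bulk leaf tissue, fewer cells of a type and less RNA per cell cannot be told apart.

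**Figure D1:**
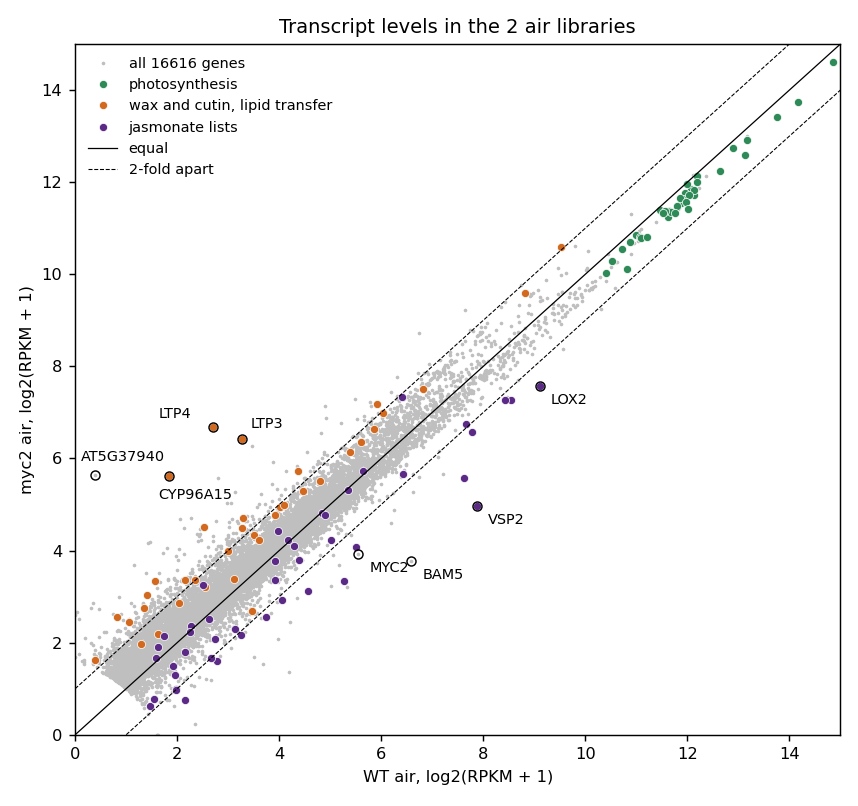
Each point is 1 of the 16616 genes tested, with log2(RPKM + 1) in WT air on the horizontal axis and in myc2 air on the vertical axis, the solid line marks equal levels and the dashed lines a 2-fold difference. Jasmonate genes such as VSP2 (234 and 30.1 RPKM) lie below the band, wax, cutin and lipid transfer genes such as LTP4 (5.48 and 102) lie above it, and the 38 photosynthesis genes lie just below the line of equal levels.

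The gene with the mutation was lower but not absent. MYC2 (AT1G32640, on the minus strand of chromosome 1 from 11798119 to 11801407 in TAIR10.1) was at 45.9 RPKM in the WT library and 14.2 in the myc2 library in air, and at 91.7 and 34.9 in WT R3 and myc2 R3. Both mutant libraries were thus below the WT library of the same condition. The log2 ratio in air was -1.63, with a counting error of 0.04, and the level in myc2 was 30.9% of that in WT. AT1G32630 overlaps MYC2 on the opposite strand, and no source used here says whether reads were counted by strand, so the remaining signal cannot be split between them. The 5 tested genes on each side of MYC2 had ratios between -0.16 and 0.41, and none was 2-fold apart.

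The relatives and partners of MYC2 had similar levels in the genotypes. MYC3, a close relative that acts with MYC2, was at 30.2 RPKM in the WT library and 30.6 in the myc2 library in air, and MYC4, another, at 8.25 and 10.2. The receptor gene COI1 was at 9.06 and 8.84, the adaptor gene NINJA at 15.7 and 17.7 and the corepressor gene TPL at 12.4 and 15.4. JAM1, which encodes a repressor that competes with MYC2 for its binding sites, was at 13.3 and 9.59 in air and at 27.8 and 12.4 at R3. Of the 10 genes of this list past the filter of 1 RPKM, MYC2 was the 1 that was 2-fold lower (10%, against 0.343% of all genes). The list median was -0.13 relative to all genes.

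In jasmonate synthesis, the genes 2-fold lower as deposited were those of the early, plastid steps, and OPR3 of the peroxisome joined them when scaled by the median of ratios. Of 16 genes past the filter (18 measured), 4 were at least 2-fold lower (25%, against 0.343% of all genes) and 0 higher. The list median was -0.38 relative to all genes. LOX2, the lipoxygenase that starts the pathway in leaf plastids, was at 553 RPKM in the WT library and 190 in the myc2 library in air, and at 367 and 32.5 at R3. AOS, allene oxide synthase of the following step, was at 220 and 94.2 in air and at 432 and 85.3 at R3. The allene oxide cyclase genes AOC2 (373 and 154 in air, 399 and 68.0 at R3) and AOC1 (44.4 and 16.0 in air, 131 and 28.7 at R3) lie next to each other on chromosome 3. In each of these 4 genes the WT library was more than 2-fold above the myc2 library in both conditions, with log2 ratios in air between -1.54 and -1.21.

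Other members of the same enzyme families had different values in air. AOC4 was at 14.7 RPKM in the WT library and 20.6 in the myc2 library in air and AOC3 at 2.01 and 2.18, and LOX6, another lipoxygenase gene, was at 4.67 and 8.47, a log2 ratio of 0.74. The lipoxygenase genes LOX3 (5.72 and 3.23) and LOX4 (2.87 and 1.46) had ratios of -0.67 and -0.65. In the peroxisome, OPR3, the reductase of the intermediate OPDA, was at 31.4 and 17.7 (-0.79). The beta-oxidation genes that follow it had nearly equal levels, with ACX1 at 17.1 and 17.8 and KAT2 at 48.7 and 52.0. JAR1, which couples jasmonate to isoleucine, was at 14.1 and 12.7. The sum over all 18 genes was 1382 RPKM in the WT library and 638 in the myc2 library in air.

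**Figure D2:**
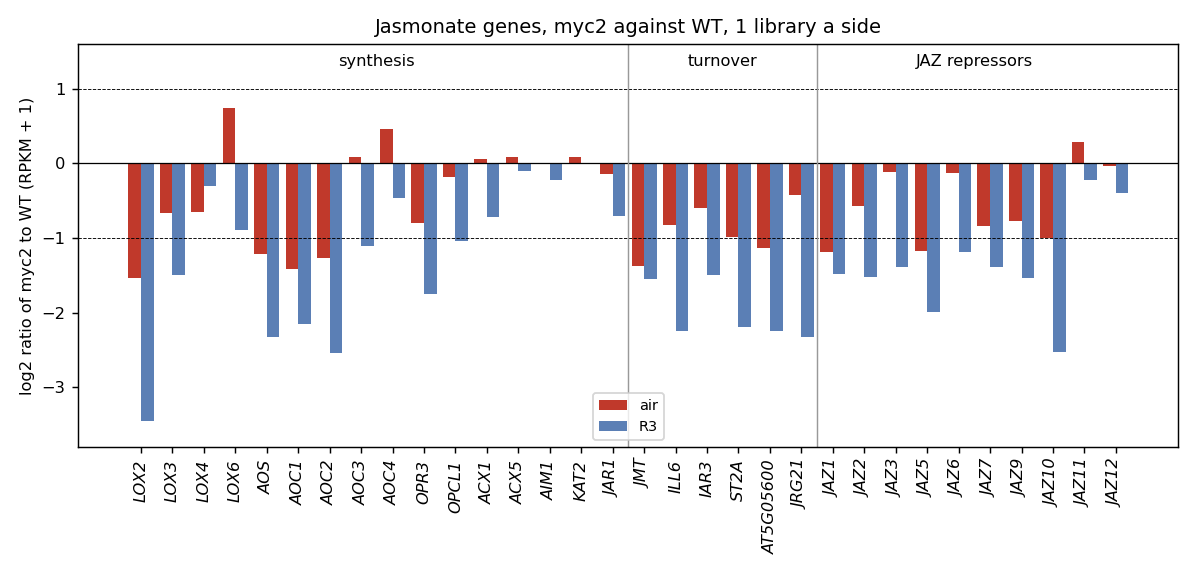
Bars give the log2 ratio of myc2 to WT (RPKM + 1) in air and at R3 for the 32 genes of jasmonate synthesis, turnover and JAZ repression past the filter in air, with dashed lines at a 2-fold difference. LOX2, AOS, AOC1 and AOC2 reach below -1 in both conditions, and most of the turnover and JAZ genes have longer bars at R3 than in air.

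Genes that modify or remove the hormone were lower in myc2 air in each case past the filter. All 6 genes past the filter had ratios below 0, 2 of them 2-fold (33.3%, against 0.343% of all genes). The list median was -1.12 relative to all genes. JMT, the methyltransferase that makes methyl jasmonate, was at 3.42 RPKM in the WT library and 0.698 in the myc2 library in air (-1.38). AT5G05600, annotated as a 2-oxoglutarate and iron dependent oxygenase, was at 15.6 and 6.59 in air and at 205 and 42.3 at R3. The sulfotransferase gene ST2A, whose product acts on hydroxylated jasmonate, was at 2.92 and 0.988 (-0.98), and the amidohydrolase genes ILL6 (7.78 and 3.95) and IAR3 (20.03 and 12.9) had ratios of -0.83 and -0.60. The 5 genes under the filter in air included CYP94B3, a hydroxylase that inactivates jasmonoyl-isoleucine, at 0.344 and 0.0581 in air and 25.6 and 2.65 at R3. At R3 10 genes of the list passed the filter and all 10 were 2-fold lower in myc2, against 1.6% of all genes tested there (3.52% in either direction).

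The JAZ repressor genes were lower in part. Of 10 past the filter (13 measured), 3 were 2-fold lower (30%, against 0.343% of all genes) and 0 higher. The list median was -0.88 relative to all genes. JAZ1 was at 12.3 RPKM in the WT library and 4.86 in the myc2 library in air, and JAZ5 at 5.84 and 2.04. JAZ10, at 2.92 and 0.954, had a ratio of -1.003 and overlaps another annotated gene. JAZ9 was the most abundant member, at 84.9 and 49.4 (-0.77), and JAZ2 was at 14.2 and 9.27 (-0.56). JAZ6 (28.9 and 26.5), JAZ12 (39.7 and 38.8) and JAZ11 (2.07 and 2.74) had ratios between -0.12 and 0.29. At R3, where WT levels of these genes were higher (JAZ1 at 164, JAZ10 at 55.5), 10 of 12 were 2-fold lower in myc2. Of all genes tested at R3, 1.6% were.

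Among response genes downstream of the hormone, 7 of 13 past the filter were 2-fold lower (53.8%, against 0.343% of all genes) and 0 higher. The list median was -1.23 relative to all genes. VSP2 and VSP1 encode vegetative storage proteins, acid phosphatase relatives that accumulate in jasmonate-treated leaves. VSP2 was at 234 RPKM in the WT library and 30.1 in the myc2 library in air, and at 150 and 25.4 at R3, and it had the lowest ratio of the genes averaging 5 RPKM or more, at -2.92 with a counting error of 0.04. VSP1, its neighbour on chromosome 5, was at 341 and 153 in air and 40.6 and 13.2 at R3. CORI3, a cystine lyase gene, was at 196 and 46.3, and TAT3, a tyrosine aminotransferase gene, at 22.8 and 7.72. NATA1, which acetylates ornithine, was at 37.5 and 9.15, and at 85.5 and 9.83 at R3. The WT library was above the myc2 library in both conditions for each of these genes.

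Further response genes were less far apart or had the other sign. CLH1, a chlorophyllase gene, was at 202 RPKM in the WT library and 107 in the myc2 library in air (-0.91), and NAC019, a transcription factor gene, at 5.37 and 2.15 (-1.01). TPS03, a terpene synthase gene, was at 8.51 and 3.49 in air (-1.08) and was listed at 0 in WT R3 and at 0.0288 in myc2 R3. RD22, a dehydration response gene also described as a MYC2 target, was at 84.0 and 160 in air (0.92) and at 711 and 617 at R3. It was thus above WT in the air library of the mutant and below WT at R3. With libraries scaled by the median of ratios, the 2-fold lower counts were 5 of 16 for synthesis, 4 of 6 for turnover, 4 of 10 for JAZ and 8 of 13 for response genes, with 0 higher in each. Under that scaling 109 of all 16616 genes were 2-fold lower. With a pseudocount of 5 the counts were 4 of 16 for synthesis, 0 of 6 for turnover, 0 of 10 for JAZ and 5 of 13 for response genes. Of all 16616 genes, 29 were then 2-fold lower.

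The 5 jasmonate lists above (MYC factors and partners, synthesis, turnover, JAZ and response) held 17 of the 57 genes that were 2-fold lower (29.8%) and 55 of all 16616 tested (0.331%). MYC2, the mutated gene itself, is among the 17. None of the 410 higher genes was in these 5 lists, which do not include the jasmonate-ethylene defence list described below. These lists were chosen with earlier results of the same libraries known, so the counts describe the libraries and are no independent evidence of direction.

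The 15 lowest ratios of the genes averaging 5 RPKM or more, of which 40 were 2-fold lower (0.39%) and 233 higher (2.27%), also included genes of metabolism outside these lists. BAM5, a beta-amylase gene, was at 95.4 RPKM in the WT library and 12.7 in the myc2 library in air, and at 160 and 42.8 at R3. ARGAH2, an arginase gene, was at 147 and 49.9 in air and 184 and 35.0 at R3. AT1G14250, annotated as a nucleoside phosphatase of the GDA1/CD39 family, was at 17.3 and 1.59, and at 3.87 and 0.0886 at R3. In these genes too the WT library was above the myc2 library in both conditions. AT1G73325, a Kunitz family protease inhibitor gene, was at 39.4 and 8.24 in air, and AT4G17470, an alpha/beta hydrolase gene, at 11.9 and 1.91. AT4G18440, annotated as L-aspartase-like, was at 72.4 and 23.4.

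Volatile and wall genes were also among the lowest. CHAT, the acetyltransferase that makes the green leaf volatile hexenyl acetate, was at 17.5 RPKM in the WT library and 4.47 in the myc2 library in air, and at 1.42 and 0.588 at R3. CSLA01, a gene of the cellulose synthase-like A family, was at 10.3 and 2.23 in air and only 0.416 and 0.110 at R3, where the level was too low to compare. TBL26, of the trichome birefringence-like family, was at 31.2 and 8.45. CYP81D11, a cytochrome P450 gene, was at 14.8 and 3.25 in air and 35.0 and 27.5 at R3, with log2 ratios of -1.89 and -0.34. BSMT1, which methylates salicylic and benzoic acid, was at 4.07 and 0.183 in air and 0.614 and 0.0467 at R3.

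**Figure D3:**
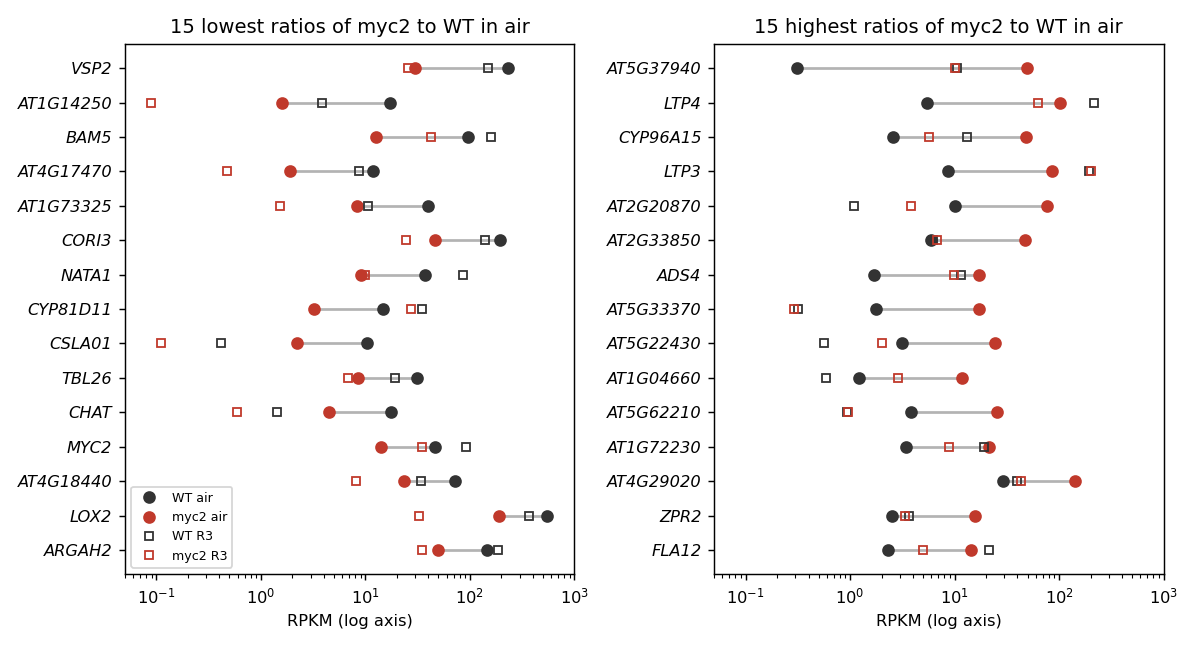
RPKM on a log axis for the 15 genes with the lowest and the 15 with the highest ratio of myc2 to WT in air, for a mean of 5 RPKM or more, filled circles for air and open squares for R3. For the lowest genes the R3 squares fall in the same order as the air circles, with WT above myc2, while for most of the highest genes the R3 squares lie close together or in the other order.

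The 250 bases upstream of the annotated starts were searched for the G-box CACGTG and for the T/G-box AACGTG, a variant that MYC2 is known to bind, on both strands, so that AACGTG also appears as CACGTT. No 6-base stretch can be both. The T/G-box was present in 17 of the 56 lower genes with a nuclear promoter (30.4%), in 34 of the 410 higher genes (8.29%) and in 1187 of all 16504 tested genes with a promoter (7.19%). The mutated gene MYC2 is among these 17 lower genes. Among the 39 lower genes outside the jasmonate lists it was present in 10 (25.6%). The G-box was present in 9 lower genes (16.1%), 23 higher genes (5.61%) and 7.34% of all. Another relative, CACATG, was in 14.3%, 12.2% and 10.9%. In longer windows the T/G-box shares were larger in each group, and the ratio of the lower-gene share to that of all genes was smaller. With 500 bases it was in 37.5% of lower, 15.9% of higher and 13.0% of all genes. With 1000 bases these shares were 48.2%, 24.9% and 23.4%. Among the genes counted under scaling by the median of ratios, a count added after seeing the data, the T/G-box was in 26 of 105 lower genes with a nuclear promoter (24.8%) and 19 of 213 higher genes (8.92%). These are matches of letters, given as a description, and binding was not measured.

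Windows around the match are shown for the 6 of the 15 lowest genes that hold a T/G-box, for AOC1, JAZ5 and VSP1 from the jasmonate lists, and for AOS with its G-box directly before the start. Matches in NAC019 (both motifs), TPS03 (T/G-box), CYP81D11 and CSLA01 (G-box) are not shown. The 15 lowest genes and the 2-fold lower genes of the jasmonate lists are together 27 genes. Of these, 11 held a T/G-box and 4 a G-box. Sequences are from RefSeq's copy of TAIR10.1, 5′ to 3′ on the strand of the gene, with the motif in capitals and up to 30 bases on each side, within the 250 searched.
AT1G14250, chr1:4868238-4868303, plus strand: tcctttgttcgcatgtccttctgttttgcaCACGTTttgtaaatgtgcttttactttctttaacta
AT4G17470, chr4:9745073-9745117, minus strand: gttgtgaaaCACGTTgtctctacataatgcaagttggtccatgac
AT1G73325, chr1:27568332-27568397, minus strand: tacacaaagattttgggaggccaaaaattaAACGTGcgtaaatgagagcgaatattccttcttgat
NATA1, chr2:16297987-16298052, plus strand: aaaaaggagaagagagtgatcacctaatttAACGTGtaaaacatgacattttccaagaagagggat
MYC2, chr1:11801487-11801552, minus strand: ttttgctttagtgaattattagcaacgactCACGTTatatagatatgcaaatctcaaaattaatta
AT4G18440, chr4:10189053-10189118, minus strand: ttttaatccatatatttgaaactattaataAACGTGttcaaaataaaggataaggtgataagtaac
AOC1, chr3:9403611-9403676, plus strand: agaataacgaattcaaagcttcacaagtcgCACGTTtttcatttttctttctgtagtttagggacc
JAZ5, chr1:5957694-5957759, minus strand: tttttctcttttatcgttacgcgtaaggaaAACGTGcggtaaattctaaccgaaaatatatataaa
VSP1, chr5:8509336-8509401, minus strand: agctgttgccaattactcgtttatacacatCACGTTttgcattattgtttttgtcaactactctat
AOS, chr5:17099596-17099631, minus strand: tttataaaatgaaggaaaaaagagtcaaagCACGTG
The match in AT1G14250 begins 78 bases before the start and that in MYC2 115 bases before its own start. In AOS it occupies the last 6 bases. VSP2, the gene with the lowest ratio, and LOX2 hold neither motif in these 250 bases.

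Genes of the leaf surface made up the largest listed group among those higher in myc2. All 28 wax and cutin genes past the filter (30 measured) had ratios above the median of all genes, against 50% of all genes. Of the 28, 13 were at least 2-fold higher (46.4%, against 2.47% of all genes) and 0 lower. The list median was 0.74 relative to all genes, and the list summed to 416 RPKM in the WT library and 842 in the myc2 library in air, but to 1557 and 1325 at R3. CYP96A15, the alkane hydroxylase of wax synthesis, was at 2.59 and 48.2 in air and 13.1 and 5.70 at R3. DCR, an acyltransferase of cutin synthesis, was at 4.75 and 21.9. WSD1, a wax ester synthase gene, was at 1.98 and 9.14, and CYP86A4, a fatty acid hydroxylase gene, at 0.776 and 4.91. The myc2 library was the higher of the air libraries in all 4, and of the R3 libraries in DCR and WSD1.

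The same held along the pathway, in genes picked out here after their values were seen. The alkane-forming genes CER1 (19.8 and 52.0 RPKM) and CER3 (16.1 and 30.7), the elongation gene CER6 (111 and 181) and the acyl-CoA synthetase gene LACS1 (8.76 and 25.1) were each higher in myc2 air, with log2 ratios of 1.35, 0.89, 0.70 and 1.42. MYB96, a transcription factor gene that activates wax synthesis, was at 3.45 and 9.35. SHN1, another activator, was at 0.121 and 1.85 and fell just under the filter. Scaled by the median of ratios, 11 of 28 were 2-fold higher, and all 28 were above 0 under each of the 3 rescalings. With a pseudocount of 5, 5 of 28 were 2-fold higher, as were 100 of all 16616 genes. At R3 the list median was -0.19 relative to all genes.

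Lipid transfer proteins, small secreted proteins of the cell surface, included 2 of the highest ratios. LTP4 was at 5.48 RPKM in the WT library and 102 in the myc2 library in air, and at 216 and 62.3 at R3. LTP3, its neighbour, was at 8.61 and 84.7 in air and 193 and 203 at R3. The order of the genotypes for LTP4 was thus opposite in the conditions, and for LTP3 the R3 libraries were nearly level. LTP1, the most abundant member, was at 735 and 1531, and LTP6 at 59.7 and 144. Of 10 genes past the filter (13 measured) 4 were 2-fold higher (40%, against 2.47% of all genes) and 0 lower. The list median was 0.65 relative to all genes. EARLI1, a cold-responsive gene of this superfamily, was the 1 member below 0, at 9.99 and 5.40.

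Genes of an epidermis list, chosen after the surface genes had been seen, were also higher in myc2 air. The list is not separate from the surface genes. It includes KCS2, a 3-ketoacyl-CoA synthase gene, and CYP86A8, of the same family as CYP86A4. All 10 genes past the filter (11 measured) were above the median of all genes, against 50% of all genes. Of these, 2 were 2-fold higher (20%, against 2.47% of all genes), KCS2 among them. The list summed to 135 RPKM in the WT library and 294 in the myc2 library in air. At R3 it summed to 274 in WT and 237 in myc2, with a median of -0.13 relative to all genes. PDF1, an epidermis-specific gene, was at 27.2 and 93.5 in air and at 5.69 and 16.2 at R3, and ATML1, a factor that specifies the epidermis, was at 8.08 and 15.6 in air. Guard cell markers did not move in the same way, with a list sum of 21.0 in WT air and 20.7 in myc2 air and 0 of 6 genes 2-fold apart. Of the trichome markers, GL2 was at 0.634 and 2.37 and TRY at 4.34 and 3.49. The part that the amount of epidermis in the samples has in the surface gene values was not tested.

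Genes of cell division were higher in myc2 air. All 22 genes of the list passed the filter with ratios above 0, against 78.6% of all genes. Of these, 21 were above the median of all genes, against 50% of all genes. At least 2-fold higher were 6 (27.3%, against 2.47% of all genes) and 2-fold lower 0. Scaled by the median of ratios, these counts became 1 and 0, with 213 of all 16616 genes higher. KNOLLE, a syntaxin gene of the forming cell plate, was at 9.03 RPKM in the WT library and 24.1 in the myc2 library in air. CYCB1;2, a mitotic cyclin gene, was at 2.64 and 7.07, CDC20.1, an activator of the anaphase-promoting complex, at 4.60 and 11.6, and PCNA1, the sliding clamp of DNA replication, at 5.60 and 13.2. The lowest ratio was that of CDC6, a replication licensing gene, at 0.916 and 1.22. The list summed to 98.5 in WT air and 188 in myc2 air, and at R3, where 8 of its genes passed the filter, to 40.0 and 53.4.

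**Figure D4:**
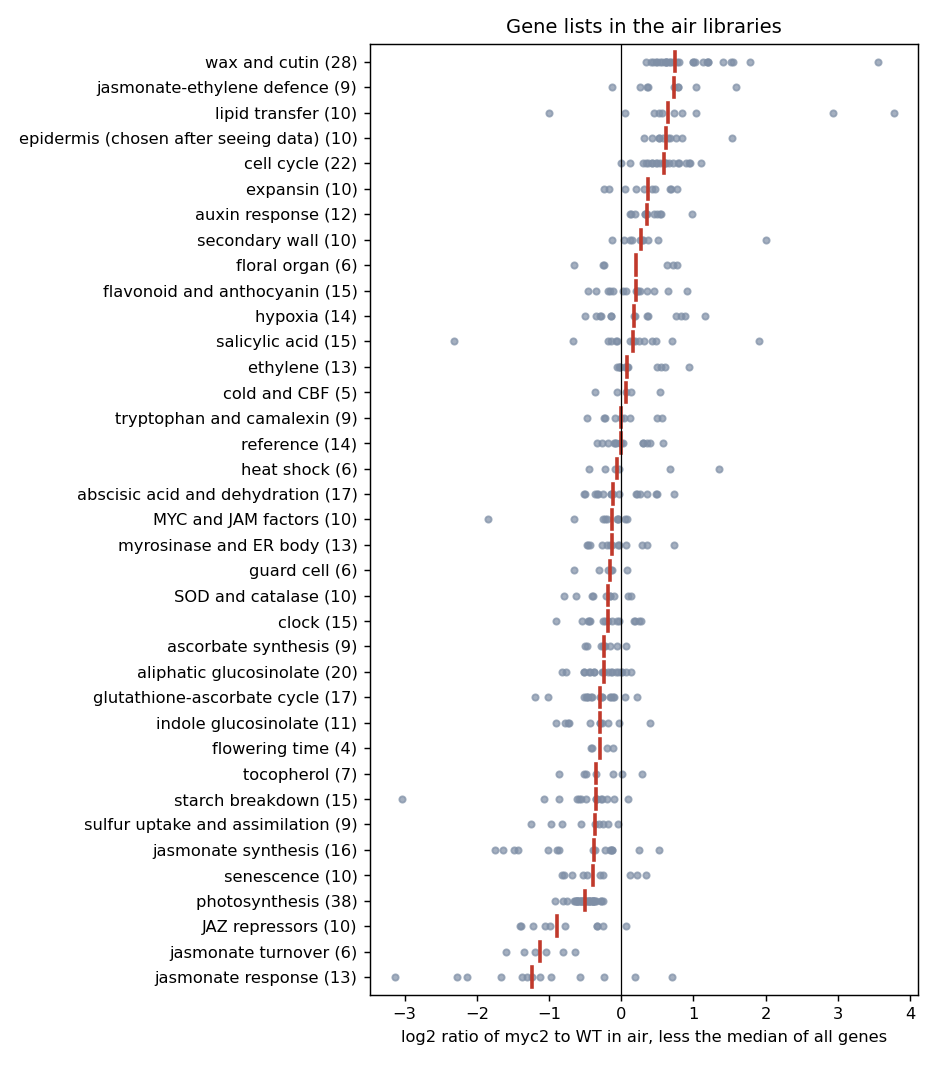
Each grey point is a gene of the list past the filter (number in brackets), placed by its log2 ratio of myc2 to WT in air less the median of all genes, and red bars mark the list medians, for lists with at least 4 such genes. Jasmonate response, turnover and JAZ genes lie lowest with medians of -1.23, -1.12 and -0.88, and wax and cutin, jasmonate-ethylene defence, lipid transfer, epidermis and cell cycle genes highest with medians between 0.60 and 0.74.

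Auxin and expansin lists lay on the same side with fewer 2-fold members. All 12 auxin response genes past the filter were above the median of all genes, against 50% of all genes. The 1 that was 2-fold higher (8.33%, against 2.47% of all genes) was IAA19, a repressor of auxin signalling. IAA19 was at 1.51 RPKM in the WT library and 4.74 in the myc2 library in air. Of 10 expansin genes, which loosen cell walls, 8 were above that median and 0 were 2-fold higher, with EXPA3 at 11.8 and 24.4 (0.99). FLA12, a fasciclin-like arabinogalactan gene expressed with secondary walls, was at 2.32 and 14.5 in air and 21.5 and 4.96 at R3. Of 10 secondary wall genes past the filter, 1 was 2-fold higher (10%, against 2.47% of all genes). Floral organ markers were low in both and went both ways. Of 6 past the filter 3 had ratios above 0 and 3 below, none of them 2-fold apart as deposited and 3 higher with a pseudocount of 0.1 or an equal sum, with AP3 at 0.651 and 2.27, PI at 0.609 and 2.08 and SEP1 at 2.60 and 1.66, and the list summed to 13.7 and 19.8. The part that the age or stage of the leaves has in these values was not tested.

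Other genes with the highest ratios are annotated by family. AT5G37940, a zinc-binding dehydrogenase gene, was at 0.307 RPKM in the WT library and 48.9 in the myc2 library in air, the highest ratio of all at 5.26, while at R3 it was at 10.6 and 10.1. It shares 24.4% of its 50-base words with AT5G38000, so part of its reads may have been placed on either. AT2G20870, a cell wall protein gene, was at 10.1 and 75.9 in air, and AT2G33850, an E6-like gene, at 5.99 and 47.0. ADS4, a fatty acid desaturase family gene, was at 1.70 and 17.0, AT5G33370, a GDSL lipase gene, at 1.76 and 17.3, and ZPR2, a small leucine zipper gene, at 2.50 and 15.5. AT4G29020, a glycine-rich protein gene, was the most abundant of the 15 highest, at 28.9 and 141. The remaining 4 were AT5G22430 (Pollen Ole e 1 family, 3.14 and 24.6), AT1G04660 (glycine-rich, 1.22 and 11.8), AT5G62210 (embryo-specific protein 3, 3.83 and 25.2) and AT1G72230 (cupredoxin, 3.40 and 21.5).

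Defence lists went different ways. Of 9 genes past the filter in the branch driven by jasmonate with ethylene, 8 were above the median of all genes. The list median was 0.73 relative to all genes. As deposited, 2 were 2-fold higher (22.2%, against 2.47% of all genes) and 0 lower. After rescaling to an equal sum 5 were higher, as were 630 of all 16616 genes. The defensin gene PDF1.2b was at 1.97 RPKM in the WT library and 9.34 in the myc2 library in air and at 5.39 and 3.99 at R3. ORA59, the transcription factor gene of this branch, had a log2 ratio of 1.25, and PR4, a chitin-binding protein gene, was at 37.3 and 75.5. Among 15 salicylic acid genes 1 was 2-fold higher and 1 lower (6.67% each, against 2.47% and 0.343% of all genes). These were NIMIN1, whose product binds the receptor NPR1, at 0.823 and 6.98, and BSMT1. PR1, a marker of salicylic acid signalling, was at 12.9 and 25.4 in air and 2.04 and 34.2 at R3. Glucosinolate lists had 0 genes 2-fold apart, with medians of -0.24 for 20 aliphatic and -0.30 for 11 indole genes.

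Photosynthesis genes were lower in myc2 air as a body, each by less than 2-fold. All 38 had ratios below 0, from -0.70 to -0.03, while 78.6% of all genes were above 0. The list median was -0.51 relative to all genes. None of the 38 was 2-fold apart, and after rescaling to an equal sum 37 were below 0. CA1, a carbonic anhydrase gene, was at 1811 RPKM in the WT library and 1114 in the myc2 library in air, and RBCS2B, also of the Rubisco small subunit, at 4102 and 2719.7. The list held 31.0% (WT air) and 25.9% (myc2 air) of the RPKM sum. At R3 its sums were 25553 and 25565, so the genotypes were level there. Of 15 starch breakdown genes, BAM5 was the 1 that was 2-fold lower (6.67%, against 0.343% of all genes). BAM3, the main leaf beta-amylase gene, was at 246 and 158 in air.

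Antioxidant genes, which the series title names, were close between the genotypes in air. None of 9 ascorbate synthesis, 17 glutathione and ascorbate cycle, 10 superoxide dismutase and catalase and 7 tocopherol genes past the filter was 2-fold apart as deposited, with list medians between -0.35 and -0.18 relative to all genes. VTC1, GDP-mannose pyrophosphorylase, was at 35.3 RPKM in the WT library and 43.2 in the myc2 library in air, and VTC2, GDP-galactose phosphorylase, at 138 and 114. The first enzyme of glutathione synthesis, GSH1, was at 42.3 and 44.8, and the next, GSH2, at 35.7 and 38.7. The lowest ratios were those of MDAR3, a monodehydroascorbate reductase gene, at 1.69 and 0.367 (-0.98), and DHAR1, a dehydroascorbate reductase gene, at 320 and 184 (-0.80). Scaled by the median of ratios, these 2 of the 17 genes were 2-fold lower, and MDAR3 alone was with a pseudocount of 0.1, with an equal sum or with the sum without the 50 highest loci. At R3 MDAR3 was at 104 and 10.03 and DHAR1 at 489 and 214. For both the WT library was above the myc2 library in both conditions. The catalase gene CAT2 was at 368 and 246 in air and at 183 and 217 at R3.

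Stress lists differed in their share of 2-fold members in air. Of 14 hypoxia genes 3 were 2-fold higher (21.4%, against 2.47% of all genes), or 1 when scaled by the median of ratios and 0 with a pseudocount of 5, and the list median was 0.18 relative to all genes. Among them were HB1, a haemoglobin gene, at 0.840 RPKM in the WT library and 3.76 in the myc2 library in air, and LBD41 at 6.16 and 13.7. HSP18.2, a small heat shock protein gene, was at 2.05 and 8.10. It was the 1 of 6 in its list past the filter that was 2-fold higher (16.7%, against 2.47% of all genes). Ethylene genes had 1 of 13 past the filter 2-fold higher (7.69%, against 2.47% of all genes). This was ACS6, a gene of ethylene precursor synthesis, at 3.63 and 9.28. The 17 abscisic acid and dehydration genes and the 15 clock genes past the filter had 0 members 2-fold apart. SDI1, a sulfur deficiency marker, was at 2.46 and 0.692. The 14 reference genes had a median of -0.01 relative to all genes, a direction that turned under 3 of the alternatives, and ranged up to 0.79 for ACT8, an actin gene, at 62.2 and 109.

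The genotype difference at R3 gave a second reading of the counted genes. Of the 57 lower genes, 46 passed the filter at R3, 44 of these had a ratio below 0 and 29 were again 2-fold lower, which is 50.9% of the air list and 10.4% of the 280 genes 2-fold lower at R3. None was 2-fold higher. The 46 had a median of -1.34 in air and -1.51 at R3. Of the 410 higher genes, 345 passed the filter at R3, 177 had a ratio above 0 and 168 below, 27 were again 2-fold higher and 14 were 2-fold lower. The 27 are 6.59% of the air list and 8.06% of the 335 genes 2-fold higher at R3, where 1.92% of all genes tested were called higher. The 345 had a median of 1.21 in air and 0.03 at R3. Across 15883 genes past both filters the ratios correlated at Pearson r = 0.11 and Spearman rho = 0.01, a description across genes of 4 libraries, 1 per group.

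**Figure D5:**
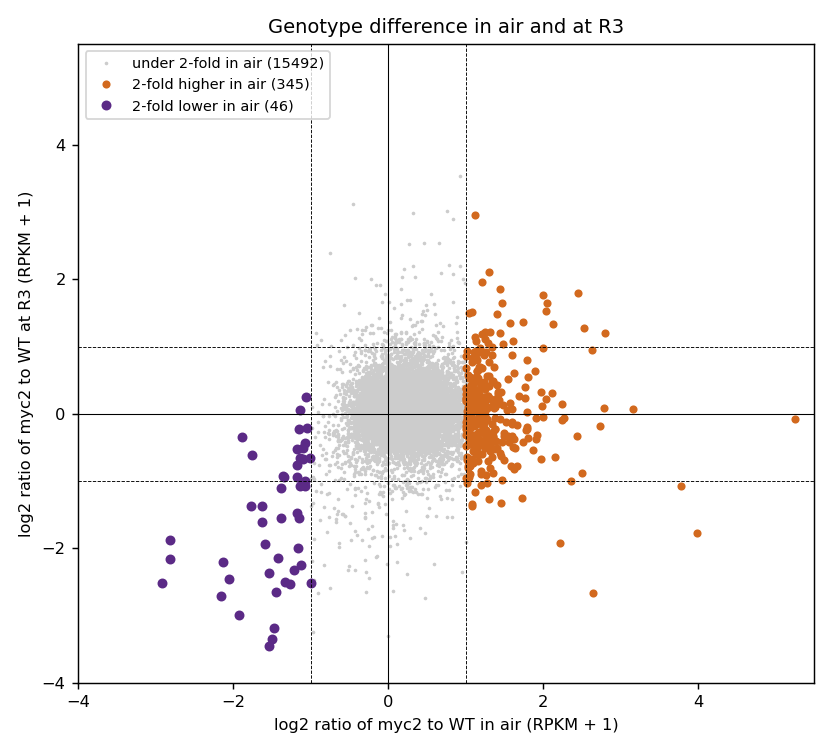
Each point is a gene past the filter in both conditions, with the log2 ratio of myc2 to WT in air on the horizontal axis and at R3 on the vertical axis, and dashed lines mark 2-fold. The 46 genes lower in air fall mostly in the lower left, 29 of them below -1 at R3, while the 345 genes higher in air spread above and below 0 at R3.

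Lower genes were relatively more frequent at high expression. Among 739 genes averaging 100 RPKM or more, 10 were 2-fold lower (1.35%) and 14 higher (1.89%), while among 6360 genes between 1 and 5 RPKM 17 were lower (0.267%) and 177 higher (2.78%). The most abundant lower genes of the jasmonate lists were LOX2, AOC2, VSP1 and AOS. The median ratio was -0.08 in the highest class and 0.24 in the lowest.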

How the data were processed

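For each library the authors deposited a table of 31319 loci, each with 1 value. WT air, myc2 air and myc2 R3 hold RPKM values, per the labels of the tables, whereas the deposited WT R3 table has FPKM (fragments in place of reads) as its heading, per the file headers. Both were used as 1 unit. The submitters' processing notes name TopHat, Cufflinks and TAIR10. Versions, settings, strand use and the treatment of reads with several matches were not given in the sources used here. Values of genes that overlap on opposite strands could therefore not be told apart (MYC2, COI1, TPL, JAZ10, JAZ12, BSMT1, EARLI1, PYK10, CAT2, BAM3, KNOLLE, CDC6, GL2, OLEO1, OLEO2, CYP81D11 and AT2G20870), and genes with near-identical copies are uncertain (AT5G37940, AT5G37950, AT5G38000, AT5G38010, DHAR1, LHCB1.2, RBCS2B, CYCB1;2, CDC20.1 and PDF1.2b, which share 5% or more of their 50-base words with another gene).

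From the deposited RPKM, log2((RPKM + 1)/(RPKM + 1)) was computed for genes averaging 1 RPKM or more, with Python 3.11.15, pandas 2.3.3 and numpy 2.4.6, and plotted with matplotlib 3.10.9. RPKM are not counts, and with 1 library per group no test was run. Library depth was read from the commonest small value of RPKM times exon length, taken as 1 fragment and sought between 8 and 100 M fragments. Of low values, 20.1% and 19.3% came out within 0.05 of a whole fragment in the air libraries, so depth and counting error are approximate. The computation was tested on simulated data.

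The comparison, the gene lists (39 lists, 558 genes) and the rules were chosen with earlier results of these data known, and an epidermis list of 11 genes was added later. Genes were named by a rule: MYC2, the 15 highest and 15 lowest ratios of those averaging 5 RPKM or more, jasmonate genes past the filter, up to 4 members of each other list in the direction of its median and 1 in the other, and VTC1, VTC2, GSH1 and GSH2. Further genes are examples chosen after their values were seen: CER1, CER3, CER6, LACS1, MYB96, SHN1, ATML1, CYP94B3 and the cell type markers LHCB1.2, RBCS1A, CRU3, OLEO1 and OLEO2. Promoters and coordinates are those of TAIR10.1, whose nuclear sequence was taken as that of TAIR10. Of the deposited loci, 697 were not in that annotation. Other settings tried were pseudocounts (0.1 and 5), filters (none and 5 RPKM), 3 rescalings, a fold of 3 and promoter windows of 500 and 1000 bases.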

Additional observations from a re-analysis of the deposited data

Results flagged for a closer look

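5 named genes were at least 2-fold apart between the genotypes in opposite directions in air and at R3, where each value rests on 1 library a side, and the difference between the conditions was not tested. The log2 ratio of myc2 to WT was 3.99 in air and -1.78 at R3 for LTP4, a lipid transfer protein gene. For CYP96A15, the alkane hydroxylase of wax synthesis, it was 3.78 in air and -1.07 at R3. The cupredoxin gene AT1G72230 had ratios of 2.35 and -1.01. FLA12, the arabinogalactan gene expressed with secondary walls, had ratios of 2.22 and -1.92. For IAA19, the auxin signalling repressor gene, the ratios were 1.19 and -1.05. All 5 were higher in myc2 in air and lower in myc2 at R3, and among the genes 2-fold lower in air 0 were 2-fold higher at R3.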

How the results depend on the processing

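Counts of higher and lower genes, 410 and 57 as reported, were 923 and 97 with a pseudocount of 0.1, 100 and 29 with a pseudocount of 5, 233 and 40 with the filter at 5 RPKM, 213 and 109 when scaled by the median of ratios, 630 and 67 with an equal sum, and 70 and 17 at 3-fold. Without a filter they were 424 and 61, and with the 50 highest loci left out of the sum 309 and 76. Genes lower in both conditions, 29 as reported, were 19 with a pseudocount of 5, 48 with the median of ratios and 9 at 3-fold. Genes higher in both, 27 as reported, were 60 with a pseudocount of 0.1, 7 with 5, 14 with the filter at 5 RPKM and 3 at 3-fold. The median of all genes, 0.22 as reported, was 0.01 with the median of ratios. Relative to all genes, 3 list medians changed sign. Tryptophan and camalexin genes (-0.00 as reported) were at 0.0073 with a pseudocount of 0.1, 0.011 with no filter, 0.0068 with the median of ratios and 0.00074 without the 50 highest loci. Reference genes (-0.01) were at 0.037 with a pseudocount of 5, 0.053 with no filter and 0.012 with the filter at 5 RPKM. Hypoxia genes (0.18) were at -0.13 with that filter. The cause of these sign changes was not tested. With no replicate, no library could be left out. No paired analysis was possible because each group has 1 library. An additive model over the 4 libraries would leave 1 residual degree of freedom and was left out, because it would take the difference of responses as error. Intervals cover counting error only, and genes near 1 RPKM are the least precise.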

Other observations

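Genes counted as 2-fold apart, 2.81% of those tested, lay next to each other among the tested genes in 25 runs, 20 of higher and 5 of lower genes. Untested loci may lie between them, and 1 run of 2 genes spans 12602468 to 12968155 on chromosome 5. Whether there are more runs than a random order of the genes would give was not tested. The longest run held 5 genes on chromosome 5 from 15107124 to 15160314 (TAIR10.1), all higher in myc2 air. It begins with AT5G37940, described above. AT5G37950, annotated as a UDP-glycosyltransferase, was at 0.276 RPKM in the WT library and 6.24 in the myc2 library in air, and AT5G38010, of the same family, at 0.866 and 5.18. AT5G37970, a methyltransferase family gene, was listed at 0 in WT air and at 5.04 in myc2 air, and AT5G38000, a dehydrogenase family gene, was at 0.241 and 5.70. All 5 were thus at or under 1 RPKM in WT air and at 5 RPKM or more in myc2 air. The glycosyltransferase genes share 50-base words with each other, 10.3% of those of AT5G37950. At R3 AT5G37940 was nearly level, at 10.6 in WT and 10.1 in myc2. In the others the WT library was the higher there, with AT5G37950 at 4.66 in WT and 2.07 in myc2. AT5G38000 was at 2.71 and 1.95 and AT5G38010 at 13.1 and 4.88. AT5G37970, at 0.972 and 0.309, was under 1 RPKM in both R3 libraries. A run of 3 lipid transfer superfamily genes on chromosome 4, from 11844506 to 11853018, held AT4G22490 at 6.89 and 31.5 in air.

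Of the lower genes outside the lists, 3 were picked out after their values were seen. HPL1, hydroperoxide lyase, which draws on the same fatty acid hydroperoxides as AOS and leads to green leaf volatiles, was at 14.6 RPKM in the WT library and 6.41 in the myc2 library in air, and at 12.0 and 5.17 at R3. FAMT, a carboxyl methyltransferase gene, was at 35.3 and 11.8 in air and 377 and 35.9 at R3. MSRB7, a methionine sulfoxide reductase gene, was at 5.36 and 1.28 in air and 58.3 and 5.51 at R3. In each the WT library was more than 2-fold above the myc2 library in both conditions.

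Gene families were defined by their annotation after the values were seen, and are described beside the 2.47% of all tested genes that were 2-fold higher. Of 14 annotated 3-ketoacyl-CoA synthase genes past the filter, which elongate fatty acids for waxes, 4 were 2-fold higher (28.6%), and their median was 0.57 relative to all genes. Arabinogalactan protein genes had 9 of 42 higher (21.4%, median 0.37), alpha and beta tubulin genes 4 of 15 (26.7%, 0.38) and xyloglucan and glucanase enzyme genes 6 of 22 (27.3%, 0.39). GDSL lipase genes had 6 of 44 (13.6%), peroxidase genes 3 of 17, pectin enzyme genes 8 of 69 (11.6%) and cytochrome P450 genes, with a median of -0.11, 9 of 102 (8.82%). The share was near that of all genes in ribosomal protein genes, at 8 of 307 (2.61%), and in histone genes, at 3 of 88 (3.41%), and 0 of 22 kinesin genes were higher. In these families 1 gene was 2-fold lower, a cytochrome P450 gene.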
